A study of Rattus norvegicus with 3 samples.

Results

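FGF23 is a hormone made by cells of the osteoblast lineage that acts on the kidney to lower phosphate reabsorption and vitamin D activation. The amount of intact hormone depends on its processing: GALNT3 attaches sugars near a furin cleavage site and protects the protein, FAM20C phosphorylates it there and favours cleavage, and loss of PHEX, a membrane endopeptidase, raises FGF23 in mice and humans. FGF receptors signal through the ERK kinases, and ERK signalling in turn induces its own inhibitors, among them the phosphatase DUSP6 and the Sprouty proteins. The genes described here are Fgf23, Galnt3, Fam20c and Phex, the receptor genes Fgfr1, Fgfr2 and Fgfr3, and the feedback genes Dusp6, Spry2 and Spry4. They were chosen by name among the non-control probes, which gave 10 genes of 26140 named on the array, with 16 probes and 34 spots per array.

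The signals came from 3 one-colour Agilent arrays of ROS17/2.8, a clonal line from a rat osteosarcoma that keeps traits of osteoblasts. All cells were grown to confluence and then kept in a mineralization medium with ascorbate phosphate and β-glycerophosphate. Polyphosphate, a chain of phosphate units, was added at 1 mg/ml for 24 h for the high dose array and at 0.01 mg/ml for 24 h for the low dose array, and was not added for the control array, which has no stated time. With 1 array per group there is no replicate check and no p-value, and group and position on the shared slide cannot be told apart. As a check of the cell label, 11 of 11 osteoblast markers were well above background on all 3 arrays. So were 6 of 7 muscle, 6 of 8 macrophage and osteoclast, 3 of 9 chondrocyte and 1 of 7 adipocyte markers. Passing this rule therefore does not by itself identify the cells. Of 8 osteocyte markers, 4 (Dmp1, Phex, Fgf23 and Reln) were not well above background on any array.

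A level below is the processed signal of a spot, an intensity in arbitrary units. A log2 ratio compares 2 arrays after each signal was divided by its array's 75th percentile, which was 937, 964 and 926 on the high dose, low dose and control arrays. The ± value, called the spot error, is the ratio's standard error taken from the scatter of repeat spots of similar level, and leaves out labelling, culture and biology. A gene is called higher or lower where it was at least 1.2-fold apart, a rule of size. Levels of different probes are not compared, since each probe binds with its own efficiency.

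The probes are 60 bases long. Sequences are shown for Fgf23, which gave no measurable signal, for the processing genes Galnt3 and Fam20c, and for Spry2, measured close to background. For Galnt3 only the first 30 bases are shown. No base is singled out in these 4 sequences.
Fgf23: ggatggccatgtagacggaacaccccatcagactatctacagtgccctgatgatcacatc
Galnt3: caaatggcttttctgaagtgactgcactgt
Fam20c: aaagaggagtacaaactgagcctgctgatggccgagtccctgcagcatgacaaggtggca
Spry2: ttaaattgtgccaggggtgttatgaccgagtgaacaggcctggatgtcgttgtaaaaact

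In the rat build rn4 used by the files, the Fgf23 probe is placed on the plus strand at chr4:163468774-163474086, a span of 5313 bases that exceeds the probe's own length. The Galnt3 probe lies on the minus strand at chr3:48026148-48026207, the Fam20c probe on the minus strand at chr12:16341254-16341313, the Phex probe on the plus strand at chrX:59167979-59168038 and the Spry2 probe on the minus strand at chr15:90009823-90009882. No annotation of that build was used here, so exons and UTRs are not stated.

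Fgf23 and Phex gave no measurable signal on any array. The 2 Fgf23 spots read 5.13 and 5.70 at the high dose, 5.15 and 5.39 with the low dose, and 5.05 and 7.88 in the control. The 2 Phex spots read 10.9 and 6.01 at the high dose, 4.35 and 5.57 with the low dose, and 10.5 and 5.46 in the control. None of these spots was well above background, so neither gene has a ratio, and 8 of the 10 genes were measured. For scale, the dimmest probe with all spots well above background read 23.1, 21.4 and 19.8 on the high dose, low dose and control arrays. After scaling, the Phex spots did not overlap for low against control or for high against low. With 2 spots per array, spots can thus lie apart even at background. The share of all probes whose spots lie apart is not given here, so the non-overlap described below is a weak mark.

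Galnt3, the glycosyltransferase gene, stood furthest from the control of the 8 measured genes at the high dose. Its 2 spots read 256 and 270 at the high dose, 216 and 217 with the low dose, and 158 and 159 in the control. The spots of the 3 arrays did not overlap, with the control lowest and the high dose highest. The log2 ratio was 0.72 ± 0.10 for high against control, a fold of 1.64. It was 0.39 ± 0.11 for low against control, a fold of 1.31, and 0.32 ± 0.09 for high against low, a fold of 1.25. Of 14503 genes measured on the high dose and control arrays, 53, Galnt3 included, had a ratio at least as high (0.365%). Among the 7553 genes whose probes had repeat spots all well above background on all 3 arrays, 13 did (0.172%). For high against control, Galnt3 stayed past 1.2-fold under all 10 alternatives tried, where its log2 ratio ran from 0.51 to 0.87. At the low dose the range was 0.23 to 0.55, and the lowest value, from the normexp background correction, lay under 1.2-fold.

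Fam20c, the secretory kinase gene, was lower at the high dose by less than 1.2-fold. Its spots read 729 and 771 at the high dose, 869 and 893 with the low dose, and 828 and 851 in the control. After scaling, both high dose spots lay below those of the other 2 arrays, and the low dose and control spots overlapped. High against control gave a log2 ratio of -0.18 ± 0.07, low against control one of 0.01 ± 0.07 and high against low one of -0.19 ± 0.07. Of 14503 genes measured on the high dose and control arrays, 2157, Fam20c included, had a ratio at least as low (14.9%). Galnt3 and Fam20c thus stood on opposite sides of 0 at the high dose, with Fam20c in a range that many genes share. Centred on spike-in probes, which puts every gene 0.15 higher at the high dose, Fam20c stood at -0.03.

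**Figure D1:**
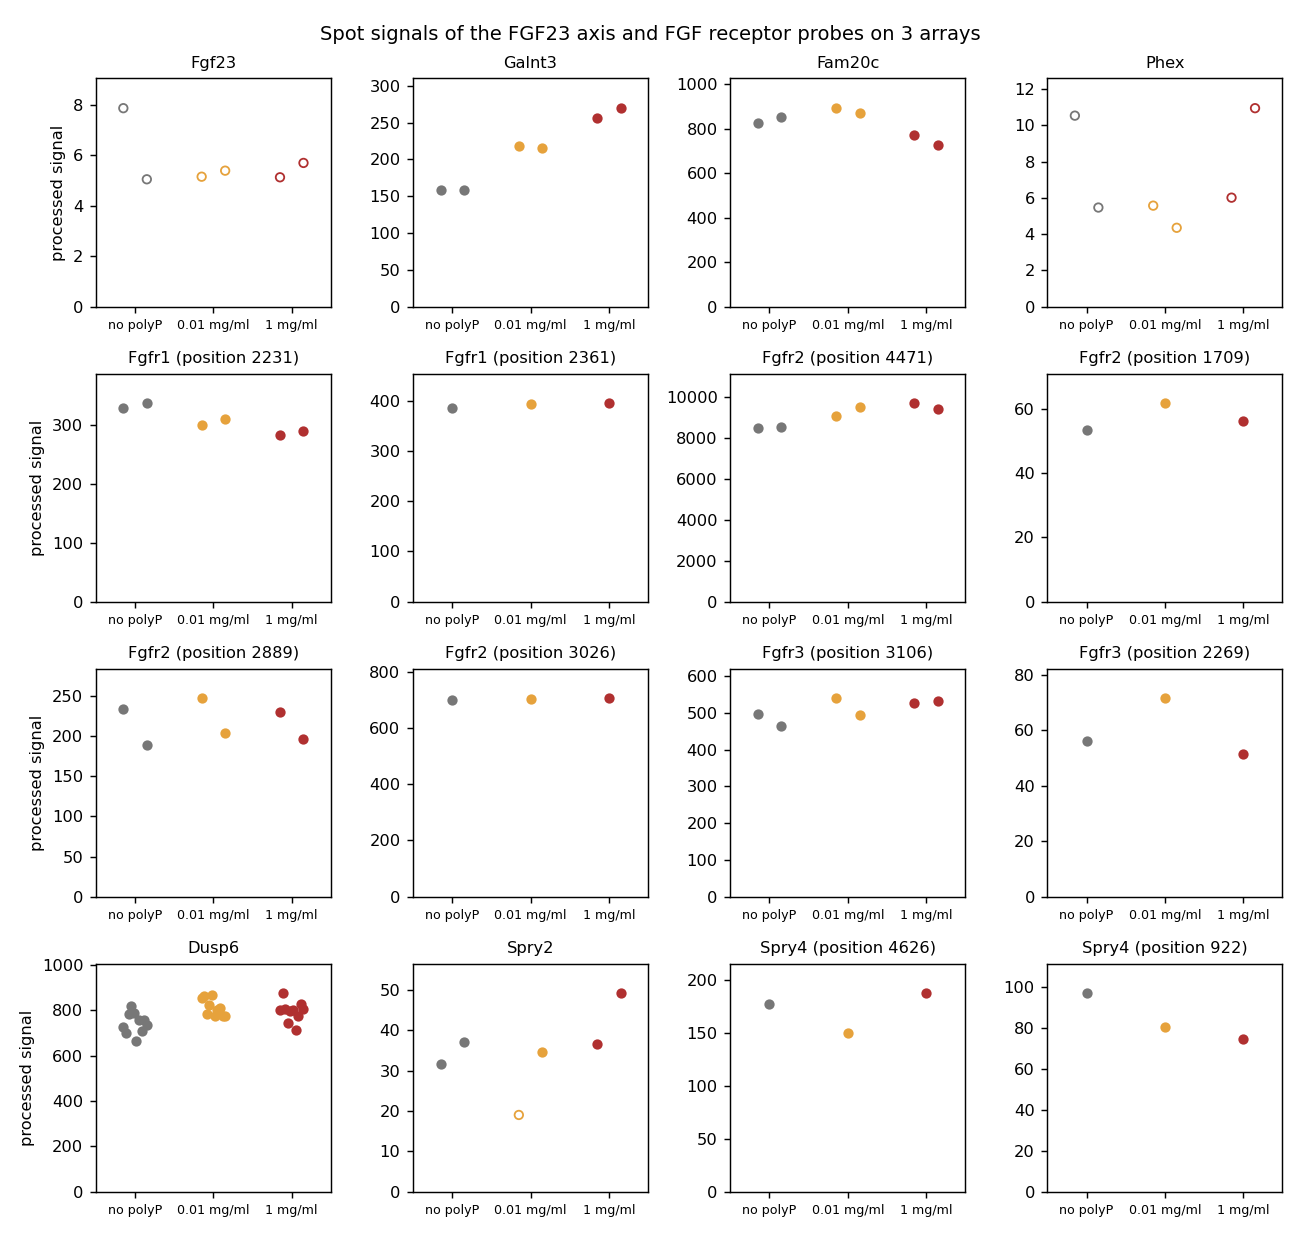
Processed signal (linear axis from 0, arbitrary units) of every spot of the 16 probes on the control, low dose and high dose arrays. Points are single spots, filled where well above background and open where not, and the transcript position names the probe where a gene has several. The 2 Galnt3 spots per array step up from 158 and 159 without overlap, while all Fgf23 and Phex spots are open.

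The receptor genes were measured by 8 probes, and their mean ratios stayed within 1.2-fold in every comparison at the main scaling. Centred on spike-in probes, Fgfr3 stood at 0.33 for low against control, past 1.2-fold. Fgfr1, which with the co-receptor Klotho forms the main FGF23 receptor, had a mean log2 ratio of -0.11 ± 0.07 for high against control and -0.11 ± 0.08 for low against control, which became 0.05 for both when centred on spike-in probes. Fgfr2, which binds several FGFs of bone and whose mutation in humans causes craniosynostosis, stood at 0.05 ± 0.09 in both comparisons. Fgfr3, which restrains growth of cartilage and long bones, stood at 0.00 ± 0.16 for high against control and 0.17 ± 0.15 for low against control. For high against low the values were 0.00 ± 0.07 for Fgfr1, 0.00 ± 0.09 for Fgfr2 and -0.17 ± 0.16 for Fgfr3.

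These means combine probes that did not read alike. The Fgfr1 probe at transcript position 2231 (chr16:70870258-70870317, rn4, minus strand) read 283 and 290 at the high dose, 301 and 312 with the low dose, and 329 and 338 in the control. The control spots were the highest and the high dose spots the lowest, with log2 ratios of -0.23 ± 0.09 for high and -0.18 ± 0.09 for low against control. The Fgfr1 probe at position 2361 (chr16:70870022-70870081) has 1 spot per array, which read 395, 392 and 385 on the high dose, low dose and control arrays. Its ratios were 0.02 ± 0.12 and -0.03 ± 0.12, so the lower Fgfr1 reading came from 1 of the 2 probes.

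The Fgfr1 probe at position 2231 resembles an Fgfr2 probe at position 2889 (chr1:189488370-189488429, minus strand). The pair was identical at 44 of 60 bases in an alignment without gaps, 73.3%, and is shown with the differing bases in capitals. Whether either probe also binds the other transcript was not tested.
Fgfr1: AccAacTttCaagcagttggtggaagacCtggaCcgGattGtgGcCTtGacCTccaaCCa
Fgfr2: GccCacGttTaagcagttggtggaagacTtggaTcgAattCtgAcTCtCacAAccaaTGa

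That Fgfr2 probe read 197 and 230 at the high dose, 204 and 247 with the low dose, and 189 and 234 in the control, with overlapping spots and log2 ratios of 0.00 ± 0.11 and 0.03 ± 0.10 against control. The Fgfr2 probe at position 4471 (chr1:189483073-189483132) read 9429 and 9703 at the high dose, 9084 and 9516 with the low dose, and 8518 and 8545 in the control. Its control spots were below all others, at a log2 ratio of 0.15 ± 0.05 for high and 0.07 ± 0.05 for low against control. The remaining Fgfr2 probes have 1 spot per array. At position 3026 (chr1:189484518-189484577) the spot read 706, 703 and 699 on the high dose, low dose and control arrays. At position 1709 it read 56.4, 61.8 and 53.4, and the files place this probe at chr1:189482950-189482987, only 38 bases, which is shorter than the probe. The 4 Fgfr2 probes thus ran from 0.00 to 0.15 for high against control.

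The Fgfr3 probe at position 3106 (chr14:82683212-82683271) read 528 and 534 at the high dose, 493 and 540 with the low dose, and 463 and 497 in the control. After scaling, both high dose spots lay above the others, and the low dose and control spots overlapped. Its log2 ratio was 0.13 ± 0.08 for high and 0.05 ± 0.08 for low against control. The single spot at position 2269 (chr14:82684049-82684108) read 51.5, 71.5 and 56.0 on the high dose, low dose and control arrays, with ratios of -0.14 ± 0.31 and 0.30 ± 0.29. The mean Fgfr3 ratio near 0 at the high dose was therefore the average of probes on opposite sides of 0.

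**Figure D2:**
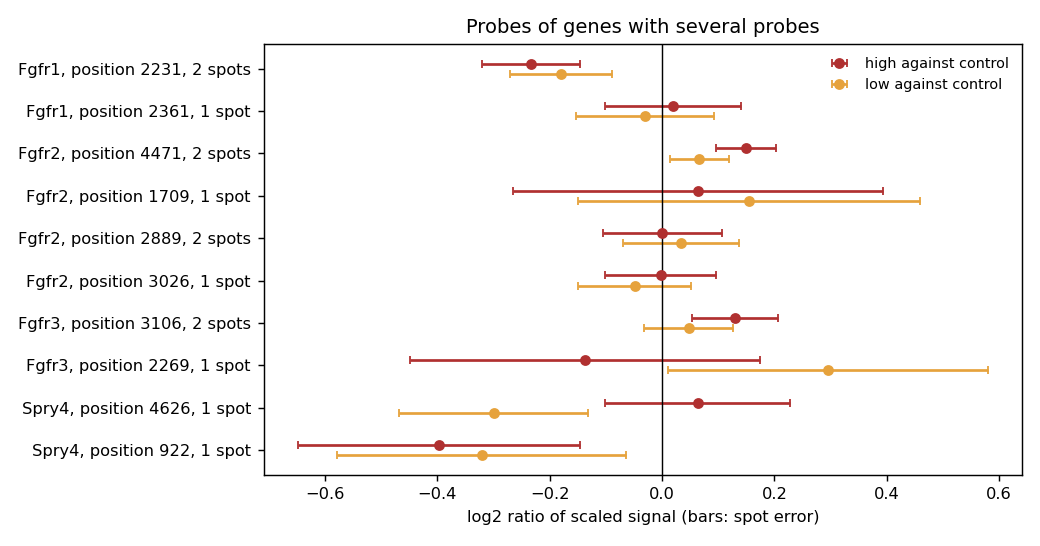
Log2 ratio of scaled signal (horizontal axis) for each probe of Fgfr1, Fgfr2, Fgfr3 and Spry4, with high against control in red and low against control in orange; bars are ± 1 spot error. The Fgfr1 probe at position 2231 lies below 0 in both comparisons while the probe at 2361 lies near 0, and the Spry4 probes lie on opposite sides of 0 at the high dose.

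Among the feedback genes, Dusp6, which encodes a cytoplasmic ERK phosphatase, was the most precisely measured, with 10 spots per array (chr7:36897369-36897428, rn4, plus strand). Its spots had a lowest, median and highest signal of 715, 803 and 875 at the high dose, 775, 807 and 867 with the low dose, and 666, 747 and 820 in the control. The spots of all 3 arrays overlapped, and 1 spot flagged as an outlier on the low dose and control arrays was left out of the ratios. The log2 ratio was 0.09 ± 0.03 for high against control, a fold of 1.06, and 0.07 ± 0.03 for low against control, a fold of 1.05. High against low was 0.02 ± 0.03.

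Spry2 and Spry4 encode Sprouty proteins, which inhibit receptor signalling to ERK. The Spry2 spots were close to background, reading 36.5 and 49.1 at the high dose, 19.0 and 34.5 with the low dose, and 31.6 and 37.1 without polyphosphate. The low dose spot of 19.0 was not well above background. The log2 ratio was 0.29 ± 0.25 for high against control and -0.48 ± 0.26 for low against control, with overlapping spots in both. High against low was 0.77 ± 0.26, a fold of 1.70, and here the scaled spots did not overlap. The ± values pool probes with all spots well above background, and from Spry2's own spots the error of that ratio was 0.48. Under the normexp background correction the 3 values were 0.08, -0.21 and 0.29, and Spry2 had no value where every spot had to be well above background.

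Spry4 has 2 probes with 1 spot each. The spot at position 4626 (chr18:31532750-31532809) read 188, 150 and 178 on the high dose, low dose and control arrays, and that at position 922 (chr18:31536454-31536513) read 74.4, 80.6 and 96.8. Both probes were lower at the low dose than in the control, by log2 ratios of -0.30 ± 0.17 and -0.32 ± 0.26, while at the high dose they stood at 0.06 ± 0.17 and -0.40 ± 0.25. Their mean log2 ratio was -0.17 ± 0.15 for high against control. Low against control gave -0.31 ± 0.15, a fold of 0.806, and high against low gave 0.14 ± 0.16. Centred on spike-in probes, the low dose value was -0.15, under 1.2-fold.

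ETS transcription factors carry ERK signals to feedback genes, so the RefSeq promoter windows of GRCr8 (250 bases before to 50 after the start) were searched for the ETS core CGGAA on both strands, with TTCCG as its reverse. The Dusp6 window (chr7:35979354-35979653, plus strand) held 3 matches, 1 of the 2 Spry2 windows held 2 and the other 0, and the Spry4 and Fgfr2 windows held 1 each. The share of all 33469 windows with at least 1 CGGAA match was 30.4%. The windows of Galnt3, Fam20c and Fgfr3 held no CGGAA match, and may hold other forms of the core. Windows of Fgf23, Phex and Fgfr1 were not searched here. ACGTG, a form of the hypoxia response core, was also searched on both strands and was held by 19.3% of all windows. It had 1 match in a Spry2 window and 0 in the others searched. Other forms of that core were not searched, so windows without ACGTG may still hold them. The Dusp6 window is shown with the matches in capitals, as a description of the letters and not of binding.
Dusp6: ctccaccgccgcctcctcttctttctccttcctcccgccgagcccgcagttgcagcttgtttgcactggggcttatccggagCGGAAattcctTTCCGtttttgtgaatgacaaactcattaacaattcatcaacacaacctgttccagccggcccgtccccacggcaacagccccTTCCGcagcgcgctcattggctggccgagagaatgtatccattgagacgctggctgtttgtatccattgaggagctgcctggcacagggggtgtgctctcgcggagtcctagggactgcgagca

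For high against control, 2 of the 8 measured genes were at least 1.2-fold higher (Galnt3 and Spry2) and 0 lower. Over all 14503 genes measured on these arrays, 7.18% were as much higher and 7.87% as much lower, 15.1% together. The median log2 ratio of the 8 genes was 0.02, against -0.01 over all genes. By the spot error, Galnt3 and Dusp6 were above 0 by more than 2 errors and Fam20c below 0 by as much, where 10.7% and 12.8% of all genes were.

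For low against control, 1 of the 8 genes was at least 1.2-fold higher (Galnt3) and 2 were lower (Spry2 and Spry4), where 3.99% and 5.08% of all 14629 measured genes were, 9.06% together. The median was 0.03, against 0.00 over all genes. Galnt3 and Dusp6 lay over 2 spot errors above 0 and Spry4 below 0 by as much, where 4.16% and 4.4% of all genes were. Dusp6 was within 2 errors by its own spots, whose error was 0.036. Spry4 passed narrowly, at 2.02 errors, and has no repeat spots of its own. The high and the low dose were both compared with the same control array, so the 2 sets of ratios share its errors.

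For high against low, Galnt3 and Spry2 were at least 1.2-fold higher and 0 of the 8 genes lower, where 6.98% and 6.12% of all 14488 measured genes were, 13.1% together. The median was 0.01, against -0.01 over all genes. Galnt3 and Spry2 lay over 2 spot errors above 0 and Fam20c below 0 by as much, where 9.76% and 10.8% of all genes were, and Spry2 was within 2 errors by its own spots. No test was made of these counts.

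**Figure D3:**
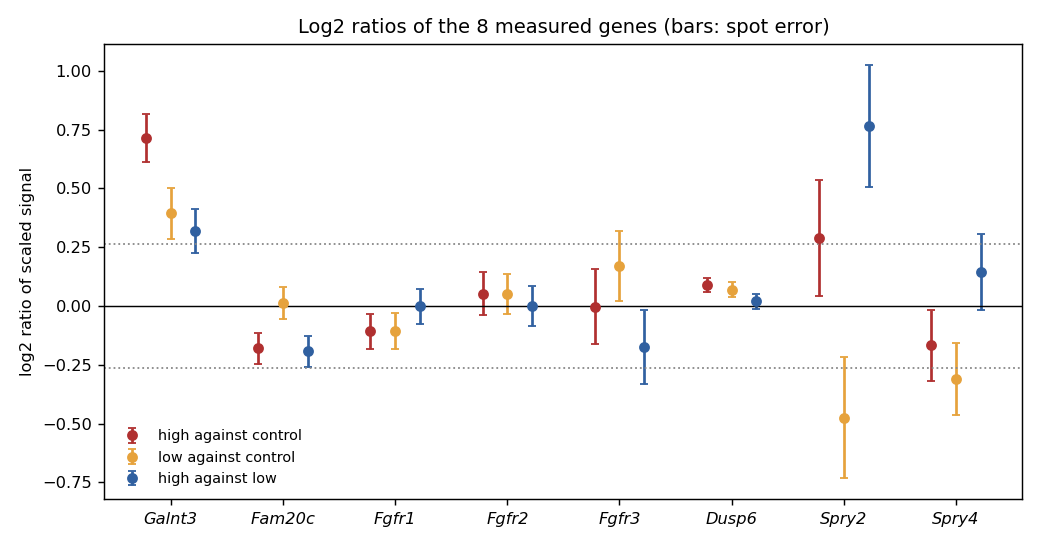
Log2 ratio of scaled signal for the 8 measured genes in the 3 comparisons (red, high against control; orange, low against control; blue, high against low); bars are ± 1 spot error and dotted lines mark 1.2-fold. Galnt3 lies above the upper line in all 3 comparisons, Spry2 has wide bars and changes side, and the 3 receptor genes and Dusp6 lie between the lines.

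The other genes of the pathway were taken from lists of named genes, whose counts stand beside the 7.18% of all genes higher and 7.87% lower for high against control, and 3.99% and 5.08% for low against control. Of 22 FGF ligand genes, 21 had a probe and 18 were not well above background on any array, Fgf7, Fgf18 and Fgf21 among them. Fgf9, which acts on bone repair and skeletal growth in mice, was the ligand at least 1.2-fold apart at the high dose. Its 2 spots read 581 and 563 at the high dose, 437 and 413 with the low dose, and 411 and 353 in the control. The high dose spots stood above all others, with a log2 ratio of 0.57 ± 0.08 against control and 0.47 ± 0.08 against the low dose, and low against control was 0.10 ± 0.09. The other ligand measured on all arrays, Fgf1, stood at 0.05 ± 0.12 for high against control.

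The co-receptor genes Kl, for Klotho, and Klb, and the receptor gene Fgfr4 were not well above background on any array. They belong to a list of 9 other receptor and co-receptor genes. The 3 measured genes of that list lay within 1.2-fold in both comparisons with the control. The measured genes include Fgfbp3, an FGF carrier gene, at 0.25 ± 0.07 for high against control, and the decoy receptor gene Fgfrl1 at -0.18 ± 0.08. All 18 measured genes of the cascade from receptor to ERK lay within 1.2-fold at both doses, from -0.17 to 0.14 for high against control. The lowest were Ptpn11, a phosphatase gene that passes the signal to Ras, at -0.17 ± 0.07 and the ERK kinase gene Map2k2 at -0.15 ± 0.05.

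Among 13 other measured feedback inhibitors of ERK, 3 were past 1.2-fold above the control at the high dose and 0 below, where 7.18% and 7.87% of all genes were. Dusp8, a phosphatase gene, stood at 0.28 ± 0.06 from signals of 2917 and 2879 in the control to 3594 and 3540. Spred2, a Sprouty relative read by 1 spot, stood at 0.56 ± 0.35 and Dusp4 at 0.44 ± 0.25, both near background. For low against control 13 were also measured, with Spred3 in place of Dusp10. Of these, 1 was higher, Spred2 at 0.62 ± 0.36, and 1 lower, Spred3 at -0.54 ± 0.26, where 3.99% and 5.08% of all genes were. Spred3 was also near background, at 22.7 with the low dose and 31.8 in the control. The list's median was 0.03 for high against control and -0.08 for low against control.

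Of 13 measured transcription factors and targets driven by ERK, Myc alone was past 1.2-fold for high against control, at 0.43 ± 0.02, where 7.18% of all genes were as much higher and 7.87% lower. For low against control 1 of 13 was past it, Egr1, an immediate early gene, at -0.26 ± 0.12, just over the threshold. The ETS factor genes Etv4 and Etv5, which follow FGF signalling in many tissues, were measured on all arrays and lay within 1.2-fold at both doses. The list's median was 0.06 for high against control and 0.00 for low against control.

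Other genes that control or process FGF23 had a median of -0.12 for high against control over 18 measured genes and -0.06 for low against control over 17. At the high dose 1 was at least 1.2-fold higher and 2 were lower, where 7.18% and 7.87% of all genes were. At the low dose 0 were apart. Hif1a stood at 0.28 ± 0.16, Sost, the sclerostin gene, at -0.33 ± 0.25 near background, and the proprotein convertase gene Pcsk7 at -0.27 ± 0.14. Dmp1, whose loss raises FGF23 in mice and humans, was not well above background on any array. Under spike-in centring all of these list medians lie higher by 0.15 for high and 0.16 for low against control.

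**Figure D4:**
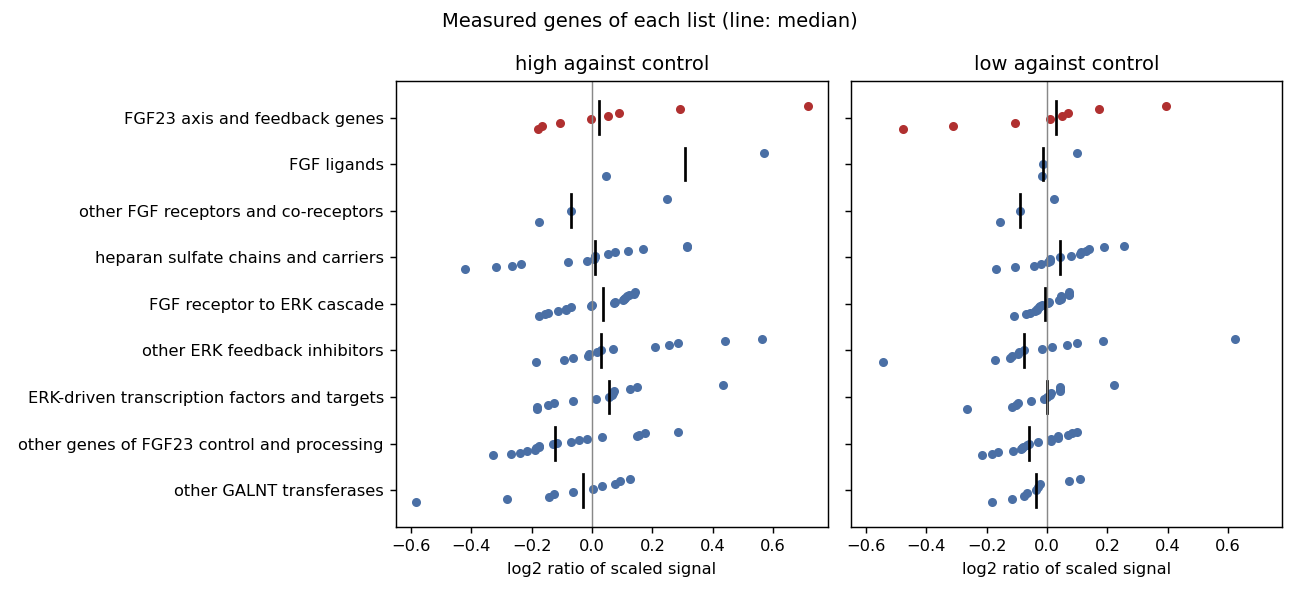
Log2 ratio of scaled signal of each measured gene (points) in the 10 genes described here (red) and 8 lists of related genes (blue), for high against control on the left and low against control on the right; vertical lines are list medians. The furthest points above 0 at the high dose are Galnt3 at 0.72, Fgf9 at 0.57 and Spred2 at 0.56, and the points of the receptor to ERK cascade lie between -0.17 and 0.14.

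The genes whose pair of ratios was most like that of Galnt3 were found among the 7553 genes with repeat spots all well above background, by the distance between their log2 ratios for high and for low against control. The nearest were Slc9a8, a sodium/proton exchanger gene (0.65 ± 0.25 for high and 0.40 ± 0.26 for low against control), Ckmt2, a mitochondrial creatine kinase gene (0.75 ± 0.18 and 0.32 ± 0.18), and the glucose transporter gene Slc2a3 (0.62 ± 0.21 and 0.45 ± 0.21). Ifit2, an interferon-induced gene, and Manea, an endomannosidase gene of the Golgi, followed at distances of 0.11 and 0.13. The likeness rests on 2 ratios from 3 arrays.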

How the data were processed

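The authors deposited scanner files of spot intensity. Agilent Feature Extraction 10.7.3.1 made them, per the file headers (protocol GE1_107_Sep09, design 028279, rn4 coordinates), with signals background-subtracted and detrended within the array and not normalized between arrays. The deposited series table holds a ratio, the processed signal over 1 constant per array (823, 849 and 823 for high, low and control, checked against the scanner values), and was an alternative. The sources used here do not say how it was made.

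Each processed signal was divided by its array's 75th percentile, taken over 58717 non-control spots, and its log2 was the main value. Outlier-flagged spots (352, 368 and 426) were left out unless a probe had no other, and no spot was saturated. Spots of a probe were averaged, a probe was taken as detected where 50% or more of its spots were well above background, and a gene was the mean of its probes detected on both arrays. Such probes numbered 16982, 17195 and 17377 of 30367, and the number of arrays limits the precision. The spot error pooled the SD of repeat spots, all well above background, in 20 bins of level. Gene symbols were updated through RefSeq accessions for 18438 probes (GRCr8 gene table, names only). The steps were tested on simulated data, using Python 3.11.15, numpy 2.4.6, pandas 2.3.3 and limma 3.58.1 (normexp, offset 50).

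No test was possible with 1 array per group. The named genes are the 10 genes, the members of each other list furthest from 0 at the high dose (up to 4 at least 1.2-fold apart, otherwise 2) and the 5 genes most like Galnt3; others, such as Spred3, Egr1, Sox9 and Hapln1, were named after their values were seen, and not all that the rule selects are printed. The 10 genes and the lists were chosen with earlier results of these data known. Alternatives were other scalings (median, 75th percentile of detected probes, quantile, spike-ins), normexp, the series table, outlier spots kept, no filter, a filter on every spot and, added after seeing the data, the brightest probe of a gene.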

Additional observations from a re-analysis of the deposited data

How the results depend on the processing

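With 10 alternatives, none turned the direction of a ratio that was at least 1.2-fold apart. Centring on 8 spike-in probes moved the median of the 10 chosen genes' measured members to 0.18 for high against control and 0.19 for low against control, as it shifts all genes. It put Spry4 under 1.2-fold for low against control (-0.15) and Fgfr3 past it (0.33). The normexp correction, which draws dim signals together, left 1 gene at least 1.2-fold apart for high against control and 0 for low against control. Requiring every spot well above background left 7 measured genes without Spry2, with 1 at least 1.2-fold apart for high against control and 1 for high against low. Without a filter, Fgf23 and Phex entered from spots at background, and 5 were at least 1.2-fold apart for low against control. Using the brightest probe moved Spry4 to 0.36 and Fgfr3 to 0.08 for high against low. For high against control it moved Spry4 from -0.17 to 0.06, Fgfr1 from -0.11 to 0.02 and Fgfr2 from 0.05 to 0.15. The other scalings, the series table and keeping outlier spots left each gene's ratio within its spot error. No paired analysis was possible because each group had 1 array.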

Other observations

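Heparan sulfate chains help FGFs bind their receptors, and 15 of 21 genes of these chains and their carriers were measured. At the high dose 2 were at least 1.2-fold higher and 3 lower, where 7.18% and 7.87% of all genes were. Sdc4, the syndecan-4 gene, stood at 0.32 ± 0.05 for high and 0.13 ± 0.05 for low against control over 12 spots per array. Glce, for the epimerase of the chains, stood at 0.31 ± 0.06 and 0.04 ± 0.07. Sdc3, the syndecan-3 gene, stood at -0.42 ± 0.06 and 0.01 ± 0.06, and all 4 of its spots were lower on the high dose array than on either of the other arrays. The exostosin-like gene Extl3 stood at -0.32 ± 0.06 and -0.17 ± 0.07. The list's median was 0.01 for high and 0.04 for low against control.

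Galnt3 belongs to a family of transferases that start mucin-type sugar chains. Of 20 other genes of this family and its core synthase, 10 were measured for high against control, with 0 at least 1.2-fold higher and 2 lower, where 7.18% and 7.87% of all genes were. Galnt4, with 10 spots, stood at -0.28 ± 0.11 and Galnt6, with 1 spot, at -0.58 ± 0.34. Both were near background, with signals of 34.5 and 29.8 at the high dose and 41.5 and 44.1 in the control. Galnt6 was not well above background on the low dose array. The median was -0.03 for high and -0.04 for low against control. Galnt1, Galnt2 and Galnt11, transferases of many tissues, were measured on all 3 arrays and lay within 1.2-fold at both doses.

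Markers of other cell types were summed as percent of each array's 75th percentile, as were the osteoblast markers. The 11 osteoblast markers summed to 13591, 14501 and 14272 on the high dose, low dose and control arrays. Sums of different lists come from different probes, so their sizes are not compared. Each gene entered as the mean log2 signal over all its probes, undetected ones included, unlike the gene means used for the ratios. Itgam, for example, entered at a signal of 30.1 at the high dose, where its detected probe stood at 159. The 7 muscle markers summed to 241, 245 and 257 on the high dose, low dose and control arrays, with Ckm, the muscle creatine kinase gene, making up most of the sum. Of these, 6 (Myog, Des, Myh3, Tnnt2, Acta1 and Ckm) were well above background on all 3 arrays and Myod1 on none. The 9 chondrocyte markers summed to 32.4, 36.8 and 34.0, carried mostly by Comp. Sox9, Comp and Hapln1 were well above background on all 3 arrays and the other 6, Col2a1 and Acan included, on none. Of these 3, 1 was at least 1.2-fold lower for high against control, where 7.87% of all genes were. For low against control 1 was higher, where 3.99% were. For high against low 2 were lower, where 6.12% were. Sox9 stood at -0.11 ± 0.10 for high against control. Low against control gave 0.41 ± 0.09 and high against low -0.52 ± 0.10. These Sox9 ratios rest on 1 detected probe. Over all its probes the Sox9 signals were 44.2, 49.0 and 42.0 on the high dose, low dose and control arrays. Comp stood at -0.13 ± 0.11, 0.08 ± 0.10 and -0.21 ± 0.11 in the same order of comparisons. Hapln1, a cartilage link protein gene, stood at -0.34 ± 0.14, 0.23 ± 0.14 and -0.57 ± 0.14 in the same order. Its 2 measured probes did not read alike for high against control. The brighter Hapln1 probe was higher, at 170 and 159 at the high dose and 147 and 147 in the control. The dimmer, near background, was lower, at 24.9 and 12.6 at the high dose and 28.4 and 33.8 in the control. The 8 macrophage and osteoclast markers summed to 45.1, 48.2 and 48.2, and the 7 adipocyte markers to 18.8, 19.1 and 17.2. Their part in the ratios was not tested.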
